A study of Mus musculus with 22 samples.

Results

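The 38 genes described here carry symbols that start with Nduf, without the assembly factors whose symbols start with Ndufaf, and were chosen by name alone from the 14407 genes of the deposited table. The family name stands for subunits of respiratory complex I that are encoded in the nucleus. Ndufa4 is now assigned to cytochrome c oxidase (complex IV), Ndufa4l2 is its paralog, and both are kept because they carry the name.

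The cells were germinal center (GC) B cells taken from spleen, the mice being of strain C57BL/6 and labelled male and 8 weeks of age, with no engineered allele. The NP group holds 2 libraries of NP-binding GC B cells, sorted on day 13 after intraperitoneal immunization with 100 µg of the hapten-carrier antigen NP-KLH in 50% alum with 1 µg of LPS. The OVA group holds 1 library of all GC B cells after immunization with ovalbumin in the same alum and LPS. The sort day of that library is not stated with it, and the labels do not say whether a library holds 1 mouse or a pool, so the spread between libraries may be partly technical. Antigen and sort gate differ together between the groups and cannot be told apart.

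Complex I, NADH:ubiquinone oxidoreductase, takes electrons from NADH in the mitochondrial matrix, passes them over a flavin and iron-sulfur clusters to ubiquinone, and pumps protons across the inner membrane. Its nuclear-encoded core subunits form the N module, which oxidizes NADH, and the Q module, which reduces ubiquinone. The proton-pumping core of the membrane arm is encoded in mitochondrial DNA, and the remaining nuclear-encoded subunits are accessory proteins around both arms. GC B cells move between a dark zone, where they divide and mutate their immunoglobulin genes, and a light zone, where they are selected. Cd83 is a light zone marker, and Myc is induced in recently selected cells.

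Promoter windows from 250 bases before to 50 bases after each start were found in RefSeq (build GRCm38.p6) for 33 of the 38 members, and 5 motifs linked in the literature to respiratory chain genes were searched on both strands. The YY1 letters AAGATGGC stood in 7 of the 33 windows (21.2%), against 5.23% of 10403 genes of the table with a window and 2.75% of all 32851 windows. In all 7 members they lay on the gene's own strand within the first 50 transcribed bases, as they did in 2.36% of table genes. These letters include ATG and so can hold a start codon. The sites are printed 5′ to 3′ as 30 bases each, with the YY1 letters in capitals, because they are the sequence these members share beyond their name.

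Ndufa3, chr7:3617384-3617413, plus strand: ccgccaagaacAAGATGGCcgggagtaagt
Ndufa9, chr6:126849097-126849126, minus strand: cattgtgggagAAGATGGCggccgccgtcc
Ndufb8, chr19:44555393-44555422, minus strand: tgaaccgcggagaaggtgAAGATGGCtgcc
Ndufc1, chr3:51408915-51408944, minus strand: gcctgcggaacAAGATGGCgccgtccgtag
Ndufs4, chr13:114388045-114388074, minus strand: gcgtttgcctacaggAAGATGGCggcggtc
Ndufs6, chr13:73328433-73328462, minus strand: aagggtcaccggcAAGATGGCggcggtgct
Ndufs7, chr10:80249462-80249491, plus strand: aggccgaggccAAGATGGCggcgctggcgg

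The CRE letters TGACGTCA occurred in 3 members (9.09%, against 3.58% of table genes), and the NRF1 consensus, GCGCA followed by its reverse complement, in 1 member (3.03%, against 2.33%). The ETS letters CCGGAAG occurred in 4 members (12.1%, against 2076 of the 10403 table genes), and the Sp1 letters GGGCGG in 15 members (45.5%, against 65.1%). Upstream sequence is printed for Ndufb6, the member with the largest difference between mitotic and noncycling cells, with an ETS match and 2 Sp1 matches read on the opposite strand in capitals. It is also printed for Ndufa11, the member that holds both CRE and NRF1 letters, in capitals. A match describes the letters in the window and is not evidence that a factor binds there.

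Ndufb6, chr4:40279422-40279671, minus strand: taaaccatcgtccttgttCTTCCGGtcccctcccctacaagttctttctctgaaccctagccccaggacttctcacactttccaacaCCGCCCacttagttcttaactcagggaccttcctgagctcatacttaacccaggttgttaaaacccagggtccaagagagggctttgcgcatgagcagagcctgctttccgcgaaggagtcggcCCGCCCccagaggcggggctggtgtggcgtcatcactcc
Ndufa11, chr17:56717582-56717731, plus strand: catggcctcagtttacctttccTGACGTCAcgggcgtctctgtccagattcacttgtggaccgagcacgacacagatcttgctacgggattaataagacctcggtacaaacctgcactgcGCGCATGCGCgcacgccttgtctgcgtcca

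Each unique molecular identifier (UMI) counts 1 captured RNA molecule. Cells were kept where 500 genes or more were seen and mitochondrial transcripts made up no more than 10% of UMIs, which 6741 of 8873 cells met. Of these, 6094 had at least 2500 UMIs and were thinned to 2500, which left 2338 and 1602 cells in the NP libraries and 2154 in the OVA library and set aside 262, 154 and 231 shallower cells. Levels below are UMIs per 1000000 UMIs of genes other than immunoglobulin genes (CPM). A 5′ library counts each captured molecule once, so no division by gene length was made. The 5 B cell markers were detected in each library, with a summed level of 6781 to 7345 CPM, as were the 8 GC B cell markers, at 1846 to 2308 CPM. The 8 myeloid markers summed to 31.8 and 735 CPM in the NP libraries and to 1529 CPM in the OVA library. The libraries share 11, 11 and 9 cell barcodes pairwise.

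Nduf transcripts were present at similar levels in the 3 libraries. The 38 members together made up 6806 and 7189 CPM in the NP libraries and 6870 CPM in the OVA library. Ndufa4 had the highest level, with 454 and 497 CPM in the NP libraries and 461 CPM in the OVA library (470 ± 23.1 CPM, SD, n = 3). Next came Ndufa13, a membrane arm subunit also known as GRIM-19, at 392 ± 2.93 CPM, with the smallest coefficient of variation of any member, 0.748%. Ndufa2, an accessory subunit of the N module, followed at 330 ± 15.1 CPM, and the ranges of these 3 genes did not overlap. From Ndufb11 (296 ± 14.2 CPM) down to Ndufb2 (111 ± 9.70 CPM), neighbours in the order mostly overlapped between libraries.

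The least abundant members that were tested include catalytic ones. Ndufv1, which binds NADH and the flavin, was at 77.3 and 79.4 CPM in the NP libraries and at 87.0 CPM in the OVA library. Ndufa9, an accessory subunit near the ubiquinone site, was at 56.2, 62.2 and 51.4 CPM. Ndufs1, the large iron-sulfur subunit of the N module, was at 45.0, 36.9 and 38.6 CPM. These 3 ranges were separate from each other and from that of Ndufb6, next above them at 97.9, 112 and 104 CPM. Ndufa4l2 had 1 thinned UMI in all cells, in the second NP library, and was left out of the tests, so that 37 of 38 members were tested.

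**Figure D1:**
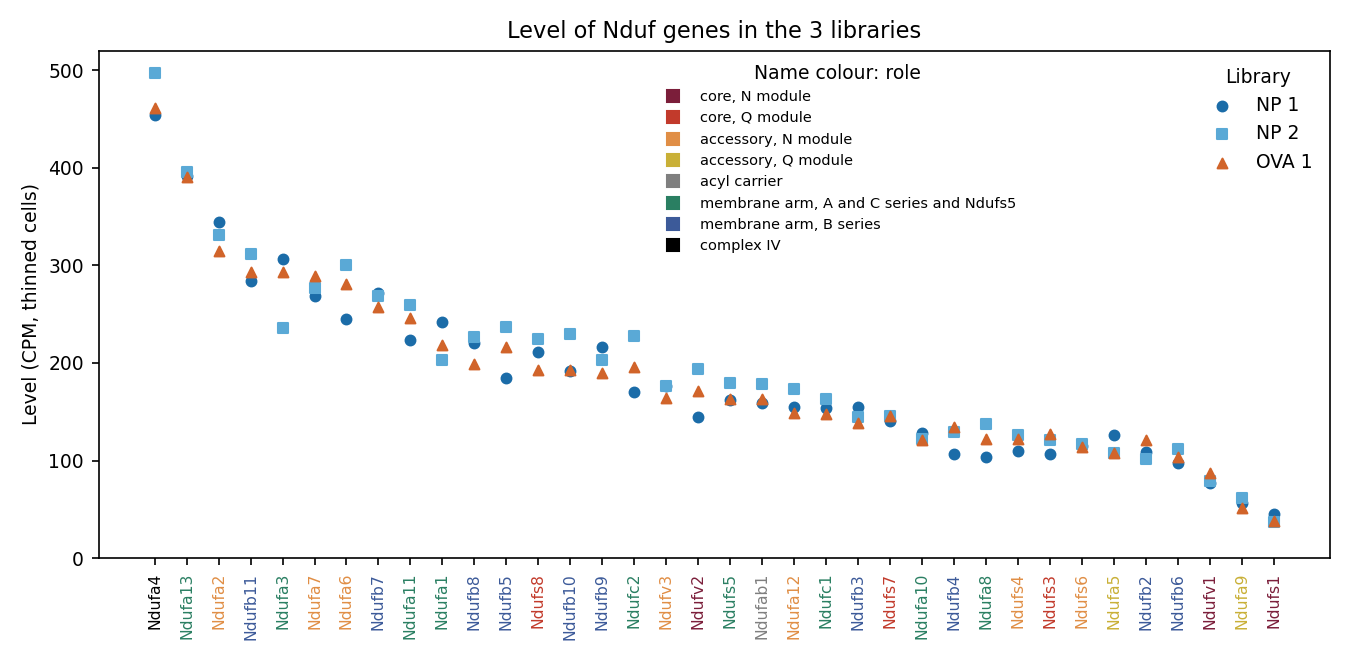
Level of Nduf genes in each library (vertical axis, CPM in thinned cells), ordered from Ndufa4 (470 CPM) to Ndufs1 (40.2 CPM). Each point is 1 library, and the colour of a name gives the role of the subunit. The points of a gene lie close together relative to the range between genes.

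The largest ratio between the highest and lowest library was 1.34, for Ndufv2, a core subunit of the N module, at 145 and 194 CPM in the NP libraries and 171 CPM in the OVA library. The NP libraries lay on either side of the OVA library for this gene. Between the NP and OVA groups no member passed the threshold (edgeR quasi-likelihood test, adjusted p under 0.05) among 0.258% of 10484 genes that did, and none had an unadjusted p under 0.05. DESeq2 also called 0. The median member difference was 0.06 on the log2 scale (NP over OVA), beside 0.01 over all genes, with standard errors from 0.26 to 0.29, so that only large differences could have been detected with 1 library in a group. The 7 mitochondrially encoded complex I genes did not share this evenness. They summed to 13542 and 10629 CPM in the NP libraries and to 6518 CPM in the OVA library, with a median log2 difference of 0.90. All 7 were higher in the NP group, and 1, mt-Nd6, passed the threshold (log2 difference 1.71 ± 0.29 SE, edgeR adjusted p = 0.00889). With 1 OVA library the spread behind this call comes from the NP libraries alone, and whether OVA libraries vary likewise was not measured.

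Cell classes were set by thinned UMIs, and where 3 values are given they stand for the first NP, second NP and OVA library in that order. Mitotic cells (930) held at least 1 UMI of Ccnb1 or Cdc20, genes of mitotic entry and exit, and 507 of them held exactly 1. Mcm5-positive cells (1719, of which 1048 held exactly 1 UMI) held the replication gene Mcm5 and neither mitotic gene. Noncycling cells (2429) held no UMI of these 3 genes, Mki67 or Top2a, which also admits cycling cells whose transcripts were not captured. As a reference for stray RNA, Ccnb1 or Cdc20 was found in 1 of 21 cells with at least 20 myeloid marker UMIs (4.76%, exact 95% interval 0.12 to 23.8%), against 15.3% of the other 6073 cells, at median depths of 7934 and 7532 UMIs. Mcm5 was also found in 1 of the 21, against 33.3% of the others. At least 2 Cd83 UMIs were found in none of the 21 (upper limit 16.1%), against 22.2%. Myc was found in none of the 21 either, but the upper limit of 16.1% lies above the 7.23% of the other cells. The interval for Ccnb1 or Cdc20 likewise contains the 15.3% of the other cells. For both of these rules the reference cannot tell expression from stray RNA. Intervals cover counting error only. Within a comparison, CPM values leave out the genes that define its classes, so the level of the same cells can differ slightly between comparisons. Both cycling classes below are compared with the same noncycling cells, so their differences are not independent of each other. Oxidative phosphorylation is named in the title of the series, which was drawn from these samples, so the direction of these genes here is not independent evidence. Likewise, most members named below were picked by tests on the same library values, so groups that do not overlap are no further support.

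In mitotic cells, 15 Nduf genes were higher than in noncycling cells and 1 was lower, 16 of 37 in all. Over all 8351 genes 34.3% passed, 17.6% higher and 16.7% lower, so the count of higher members stood above the background and that of lower members below it. The median member difference was 0.22 on the log2 scale, beside -0.02 over all genes, and 31 members had a positive sign. Of the members, 23 were higher in all 3 libraries, as were 31.5% of all genes.

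The membrane arm B series held the member with the largest difference. Ndufb6 (chr4:40270591-40279421) was at 136 and 154 CPM in mitotic cells of the NP libraries and 133 CPM in those of the OVA library. In noncycling cells it was at 70.4, 87.0 and 86.8 CPM in the same order, so every mitotic value lay above every noncycling one. The log2 difference was 0.72 ± 0.11 (SE; edgeR adjusted p = 1.24e-07). Ndufb7, which carries paired cysteines on the intermembrane space side, was at 318, 307 and 316 CPM against 229, 234 and 215 CPM (log2 difference 0.41 ± 0.08, edgeR adjusted p = 2.31e-05). Ndufb8 was at 269, 252 and 269 CPM against 195, 209 and 172 CPM (log2 difference 0.40 ± 0.09, edgeR adjusted p = 1.02e-04). Neither gene's groups overlapped. Ndufb9 and Ndufb3 also rose, by 0.38 ± 0.09 and 0.33 ± 0.10, while Ndufb2, Ndufb4, Ndufb5, Ndufb10 and Ndufb11 lay between 0.00 and 0.13 and did not pass. Ndufb4 has a near copy in the reference, Ndufb4b, so its reads could be shared.

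Among the remaining membrane arm subunits, Ndufs5 was at 212, 244 and 187 CPM in mitotic cells against 147, 160 and 139 CPM. The groups did not overlap (log2 difference 0.46 ± 0.09, edgeR adjusted p = 4.09e-05). Ndufa11 (0.32 ± 0.09), Ndufc1 (0.32 ± 0.10) and Ndufa1 (0.26 ± 0.09) passed too. The abundant subunits Ndufa13 (-0.06 ± 0.08) and Ndufa3 (-0.01 ± 0.08) did not, and both had a lower value in mitotic cells in 1 library.

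In the matrix arm, Ndufa5, an accessory subunit of the Q module, was at 146, 122 and 150 CPM in mitotic cells against 102, 87.0 and 87.2 CPM in noncycling ones (log2 difference 0.54 ± 0.11, edgeR adjusted p = 4.11e-05), with no overlap. Ndufs6, a zinc-binding accessory subunit of the N module, was at 142, 143 and 119 CPM against 92.7, 98.7 and 98.9 CPM (log2 difference 0.41 ± 0.11, edgeR adjusted p = 0.00208). Ndufab1, the mitochondrial acyl carrier protein, which also serves fatty acid and lipoic acid synthesis outside complex I, was at 193, 187 and 188 CPM against 125, 139 and 143 CPM (log2 difference 0.42 ± 0.10, edgeR adjusted p = 3.00e-04). These 3 genes were higher in mitotic cells of every library. Ndufs4 (0.30 ± 0.11) and Ndufa12 (0.28 ± 0.10) also rose.

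Ndufa6, an accessory subunit of the LYR family that binds the acyl carrier, was the 1 member that fell. It was at 243, 307 and 247 CPM in mitotic cells against 259, 326 and 308 CPM. The groups overlapped across libraries, and the mitotic value was the lower one within each library (log2 difference -0.23 ± 0.08, edgeR adjusted p = 0.0258). The complex IV subunit Ndufa4 was at 592, 624 and 588 CPM against 367, 440 and 404 CPM, with no overlap and the smallest adjusted p of any member (log2 difference 0.51 ± 0.07, edgeR adjusted p = 4.86e-09).

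None of the 7 catalytic core subunits passed. In the N module, Ndufs1 (0.38 ± 0.18), Ndufv1 (0.29 ± 0.14) and Ndufv2 (0.22 ± 0.10) had positive differences with adjusted p-values of 0.0929, 0.0933 and 0.0650 by edgeR. In the Q module, Ndufs8 (0.11 ± 0.09), Ndufs7 (0.07 ± 0.10) and Ndufs3 (-0.06 ± 0.11) lay near 0. Whether core and accessory subunits differ in their change was not tested.

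The number of calls depended on the test. DESeq2 called 6 members, Ndufa4, Ndufa5, Ndufb6, Ndufb7, Ndufb8 and Ndufs5, and the fit without the library term called 3. With cells thinned to 1500 UMIs 7 members passed and the difference of Ndufb9 turned to -0.00135, and with at least 2 class-defining UMIs 10 passed. Leaving out the first NP library or the OVA library left 12 calls each: Ndufa1, Ndufa12 and Ndufs4 were lost in both cases, Ndufb3 and Ndufs6 without the NP library, and Ndufa6 and Ndufc1 without the OVA library. Ndufc1 was also lost without the second NP library.

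In Mcm5-positive cells 17 members were higher than in noncycling cells and 1 was lower. Over all 8885 genes 31.2% passed, 17.3% higher and 13.9% lower. The median member difference was 0.19, beside -0.01 over all genes. Of the members, 22 were higher in all 3 libraries, as were 29.0% of genes.

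The acyl carrier protein Ndufab1 led this comparison. It was at 183, 231 and 193 CPM in Mcm5-positive cells of the first NP, second NP and OVA libraries, and at 125, 139 and 143 CPM in noncycling ones, with no overlap (log2 difference 0.53 ± 0.08, edgeR adjusted p = 1.47e-08). Ndufa5 was at 145, 128 and 129 CPM against 102, 87.0 and 87.2 CPM (log2 difference 0.52 ± 0.09, edgeR adjusted p = 1.37e-06). It too was higher in every Mcm5-positive sample than in any noncycling one.

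Some core subunits passed here. Ndufv1 was at 91.4, 80.2 and 105 CPM against 59.7, 70.2 and 73.1 CPM (log2 difference 0.44 ± 0.11, edgeR adjusted p = 4.92e-04), with no overlap. Ndufv2 (0.24 ± 0.08) and the Q module subunit Ndufs7 (0.23 ± 0.08) passed as well, while Ndufs1 (0.20 ± 0.15), Ndufs3 (0.04 ± 0.09) and Ndufs8 (-0.05 ± 0.08) did not.

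Of the accessory subunits, Ndufb6 was at 96.4, 124 and 114 CPM in Mcm5-positive cells against 70.4, 87.0 and 86.8 CPM (log2 difference 0.42 ± 0.10, edgeR adjusted p = 3.05e-04). Ndufa12 (0.37 ± 0.08), Ndufb7 (0.36 ± 0.07), Ndufs6 (0.32 ± 0.09) and Ndufc2 (0.32 ± 0.08) followed. Ndufa6 again fell, with 235, 277 and 252 CPM against 259, 326 and 308 CPM (log2 difference -0.24 ± 0.07, edgeR adjusted p = 0.00277), lower within each library. DESeq2 called 4 members, Ndufa4, Ndufa5, Ndufab1 and Ndufb7, the fit without the library term called 1, Ndufa5, and leaving out the first NP library left 10, with Ndufa2, Ndufa11, Ndufb8, Ndufb9, Ndufs5, Ndufs6, Ndufs7 and Ndufv1 lost. Without the OVA library Ndufa2, Ndufa6, Ndufb8, Ndufb9, Ndufs5, Ndufs7 and Ndufv2 were lost, and Ndufa11 and Ndufb9 without the second NP library. With cells thinned to 1500 UMIs 9 members passed.

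**Figure D2:**
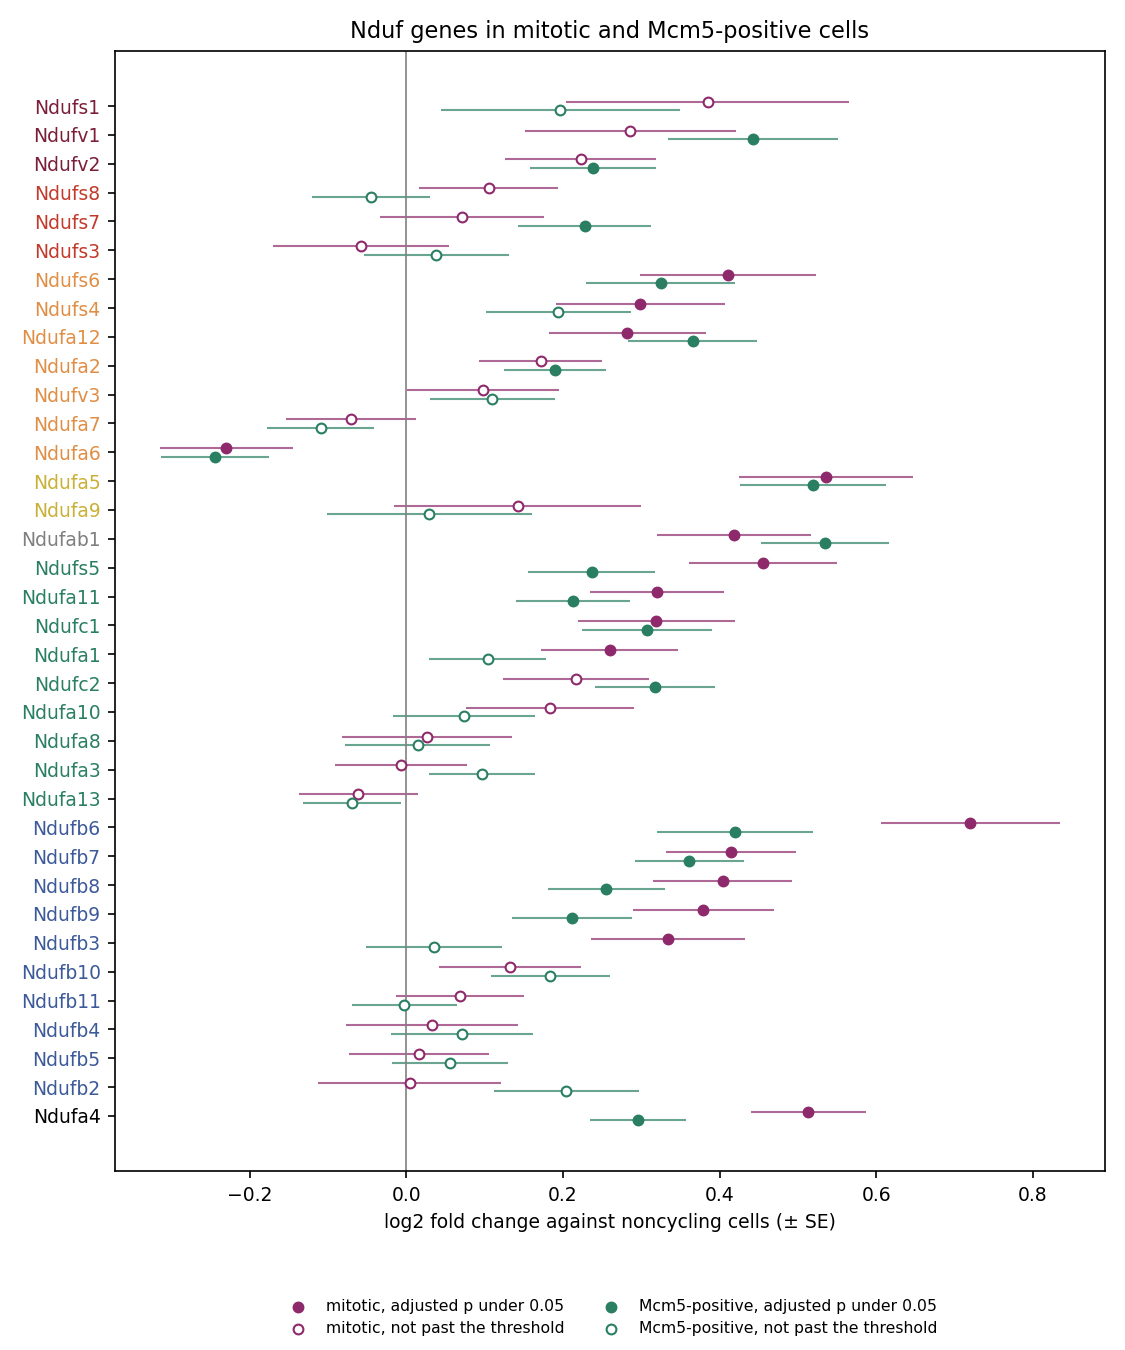
Log2 fold change of Nduf genes in mitotic and in Mcm5-positive cells against noncycling cells (horizontal axis), with standard errors as bars; genes are grouped by role, shown by the colour of the name. Filled points passed an adjusted p of 0.05, with Ndufb6 farthest right at 0.72 in mitotic cells and Ndufa6 below 0 in both classes.

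Mitotic and Mcm5-positive cells were also compared with each other. Mitotic cells had higher levels of 4 of 37 members and lower levels of none, where 16% of 7878 genes passed, 8.29% higher and 7.71% lower. The count of higher members was thus near that of genes in general. Of the members, 10 were higher in all 3 libraries, as were 22.9% of genes. Ndufb3 was at 192, 188 and 158 CPM in mitotic cells against 145, 129 and 146 CPM, with no overlap (log2 difference 0.34 ± 0.10, edgeR adjusted p = 0.00789). Ndufb6 (0.34 ± 0.11) and Ndufa4 (0.26 ± 0.06) were separate between the classes as well. Ndufs5 (0.26 ± 0.09) was at 212 and 244 CPM against 163 and 182 CPM in the NP libraries and at nearly the same level in both classes of the OVA library. No member passed by DESeq2 or without the library term, leaving out either NP library left 1, Ndufa4, and leaving out the OVA library lost Ndufb6.

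The mitochondrially encoded subunits did not follow the nuclear ones. In mitotic cells none of the 7 was higher than in noncycling cells and 4 were lower, with a median log2 difference of -0.21. The largest was that of mt-Nd4, a proton-pumping subunit, at 755, 612 and 580 CPM in mitotic cells against 972, 800 and 733 CPM (log2 difference -0.43 ± 0.07, edgeR adjusted p = 1.90e-07). The groups overlapped because of the differences between libraries, and each library moved the same way. In Mcm5-positive cells mt-Nd4 (-0.22 ± 0.06) was the 1 of 7 to pass. Against Mcm5-positive cells, mitotic cells had lower levels of 4 of the 7. Mitochondrial UMIs count in the denominator of a CPM value, and the median mitochondrial share per cell was 4.83, 3.74 and 2.74% in mitotic cells and 5.67, 4.42 and 3.01% in noncycling cells. Its part in the Nduf differences was not tested, and with at most 5% mitochondrial UMIs per cell 15 members passed in each comparison with noncycling cells.

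Of 17 complex I assembly genes, 1 rose in mitotic cells, Ndufaf2 (0.95 ± 0.27), a chaperone that stands in for Ndufa12 during assembly. In Mcm5-positive cells Ndufaf2 (0.97 ± 0.21) and Foxred1 (0.52 ± 0.19) rose while Ndufaf3 (-0.45 ± 0.14) and Ndufaf4 (-0.40 ± 0.16) fell. Other respiratory complexes had higher members in mitotic cells too. The counts were 2 of 4 for complex II, 5 of 9 for complex III, 7 of 10 for complex IV and 12 of 18 for complex V. Uqcrh of complex III was the 1 gene of these that fell (-0.21 ± 0.07). In Mcm5-positive cells 1, 4, 7 and 12 genes of these lists rose, and Uqcrh (-0.23 ± 0.06) and Cox7c (-0.16 ± 0.06) fell.

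Depth and other cells moved with these classes. Before thinning, the median cell held 8223, 11796 and 11556 UMIs among mitotic cells and 5149, 6768 and 6746 UMIs among noncycling cells, and Nduf UMIs per cell were 71.5, 98.2 and 101 against 37.9, 51.4 and 48.7. With all UMIs in place of thinned ones, 27 members passed in mitotic and 26 in Mcm5-positive cells. Myeloid markers summed to 0, 6.01 and 1661 CPM in mitotic cells and to 92.6, 1011 and 2280 CPM in noncycling cells. All 8 of them were at 0 in mitotic cells of the first NP library, and 7 of 8 in those of the second. Of the 21 cells with at least 20 myeloid marker UMIs, 1 was mitotic. How many mitotic cells carry the OVA value was not determined. Markers of memory or naive B cells summed to 110, 125 and 171 CPM in mitotic, 156, 133 and 273 CPM in Mcm5-positive and 423, 444 and 590 CPM in noncycling cells, and all 7 that could be tested were lower in each cycling class. The part of such cells in the Nduf differences was not tested. Without the cells that held at least 3 UMIs of other cell types' markers, 17 members passed in mitotic cells and 18 in Mcm5-positive cells.

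Noncycling cells that held at least 2 Cd83 UMIs (692 cells, 287 of them with exactly 2) were compared with noncycling cells that held none (1113 cells). The 624 noncycling cells with exactly 1 Cd83 UMI were in neither group. In Cd83-high cells 7 Nduf genes were lower and none was higher. Over all 7078 genes 8.77% passed, 4.69% higher and 4.08% lower, so lower members were more frequent than lower genes in general. The median member difference was -0.19, beside 0.00 over all genes, and 33 of 37 members had a negative sign. Of the members, 20 were lower in all 3 libraries and none was higher in all 3, where 22.3% and 16.1% of genes were.

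Ndufa5 of the Q module had the largest difference. It was at 80.3, 78.3 and 67.7 CPM in Cd83-high cells of the first NP, second NP and OVA libraries, and at 125, 97.6 and 111 CPM in Cd83-zero cells. The groups did not overlap (log2 difference -0.55 ± 0.16, edgeR adjusted p = 0.00917). Ndufs5 of the membrane arm was at 120, 130 and 92.9 CPM against 168, 180 and 147 CPM (log2 difference -0.51 ± 0.13, edgeR adjusted p = 0.00257). Ndufa8, a membrane arm subunit with paired cysteine motifs, was at 93.9, 105 and 101 CPM against 139, 157 and 123 CPM (log2 difference -0.43 ± 0.14, edgeR adjusted p = 0.0301). In these genes too, each Cd83-high value lay below each Cd83-zero value.

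Of the B series, Ndufb8 was at 171, 188 and 126 CPM in Cd83-high cells against 227, 240 and 196 CPM, with no overlap (log2 difference -0.43 ± 0.11, edgeR adjusted p = 0.00280). Ndufb7 was at 203, 188 and 176 CPM against 255, 270 and 235 CPM (log2 difference -0.38 ± 0.10, edgeR adjusted p = 0.00617). The other B series subunits did not pass, and Ndufb6 differed by -0.09 ± 0.16.

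The core subunits that passed were both iron-sulfur proteins of the Q module. Ndufs8 was at 163, 186 and 164 CPM against 230, 260 and 196 CPM (log2 difference -0.37 ± 0.11, edgeR adjusted p = 0.0123). Ndufs7 was at 98.4, 103 and 121 CPM against 135, 167 and 142 CPM (log2 difference -0.40 ± 0.14, edgeR adjusted p = 0.0432). Neither gene's groups overlapped. The Q module subunit Ndufs3 (-0.12 ± 0.14) and the N module subunits Ndufs1 (-0.29 ± 0.24), Ndufv2 (0.01 ± 0.12) and Ndufv1 (0.19 ± 0.18) did not pass.

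**Figure D3:**
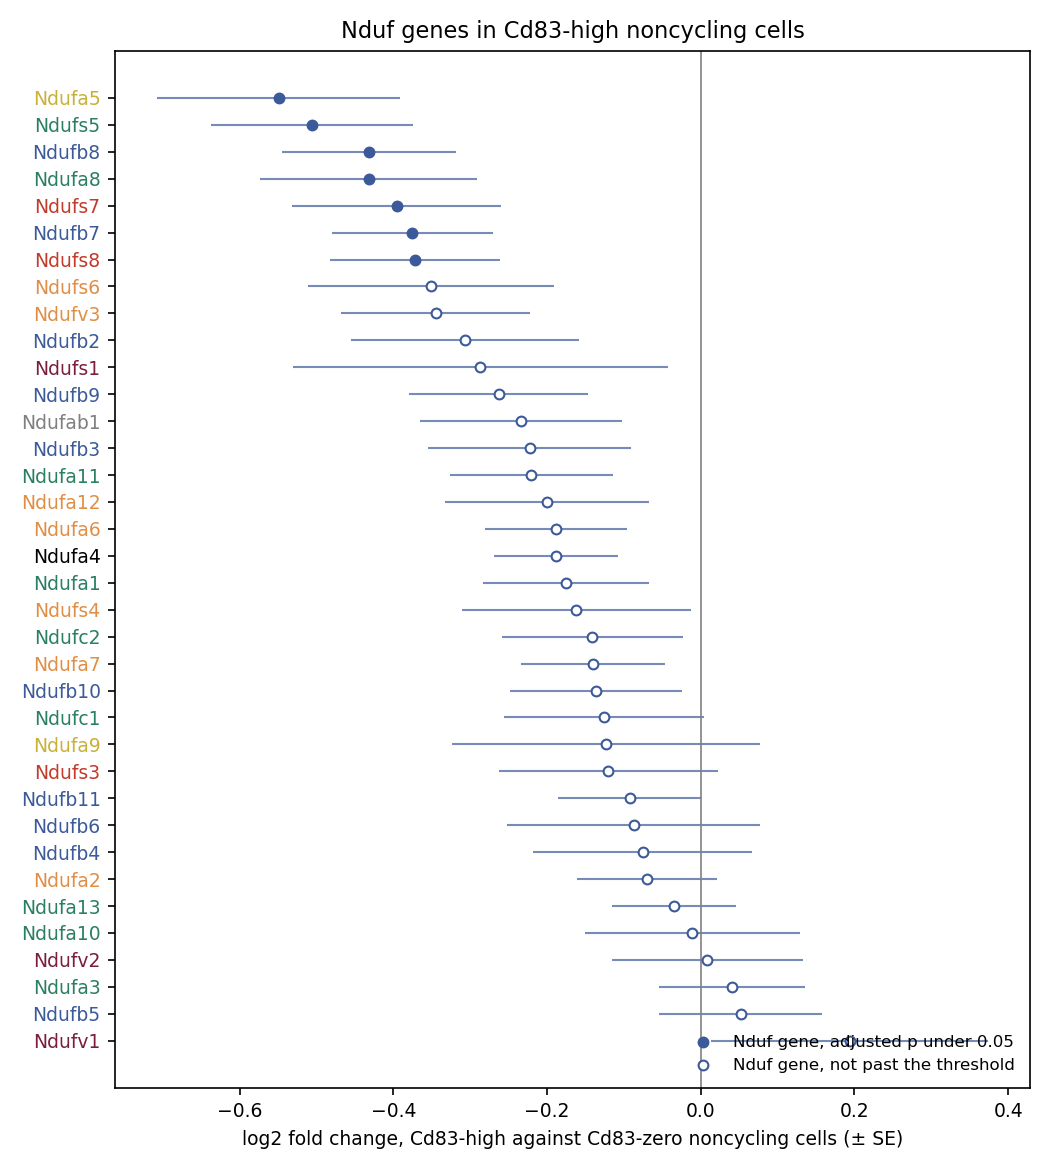
Log2 fold change of Nduf genes in Cd83-high against Cd83-zero noncycling cells (horizontal axis), with standard errors as bars, ordered by size. The 7 filled points, from Ndufa5 at -0.55 to Ndufs8 at -0.37, passed an adjusted p of 0.05, and most of the other points lie below 0.

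By DESeq2, and without the library term, no member passed in this comparison, and leaving out the first NP library left 3 (Ndufb7, Ndufb8 and Ndufs5). Leaving out the second lost Ndufa8, Ndufb7, Ndufs7 and Ndufs8, and leaving out the OVA library lost Ndufa5, Ndufb8 and Ndufs5. With cells thinned to 1500 UMIs, or with at most 5% mitochondrial UMIs, 3 members passed. The mitochondrially encoded mt-Nd5 (0.18 ± 0.06) and mt-Nd4 (0.17 ± 0.06) were higher in Cd83-high cells. Of the 15 assembly genes tested, Ndufaf7, a methyltransferase, rose (1.02 ± 0.34). In the other complexes none rose, and 1 of 4 genes of complex II, none of 9 of complex III, 5 of 10 of complex IV and 8 of 18 of complex V fell. Myeloid markers summed to 0, 0 and 37.7 CPM in Cd83-high cells and to 208, 2109 and 4855 CPM in Cd83-zero cells, and memory or naive B cell markers to 526, 515 and 697 CPM against 315, 381 and 533 CPM. Without the cells that held other cell types' markers, 8 members passed. The part of memory or naive B cells was not tested.

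**Figure D4:**
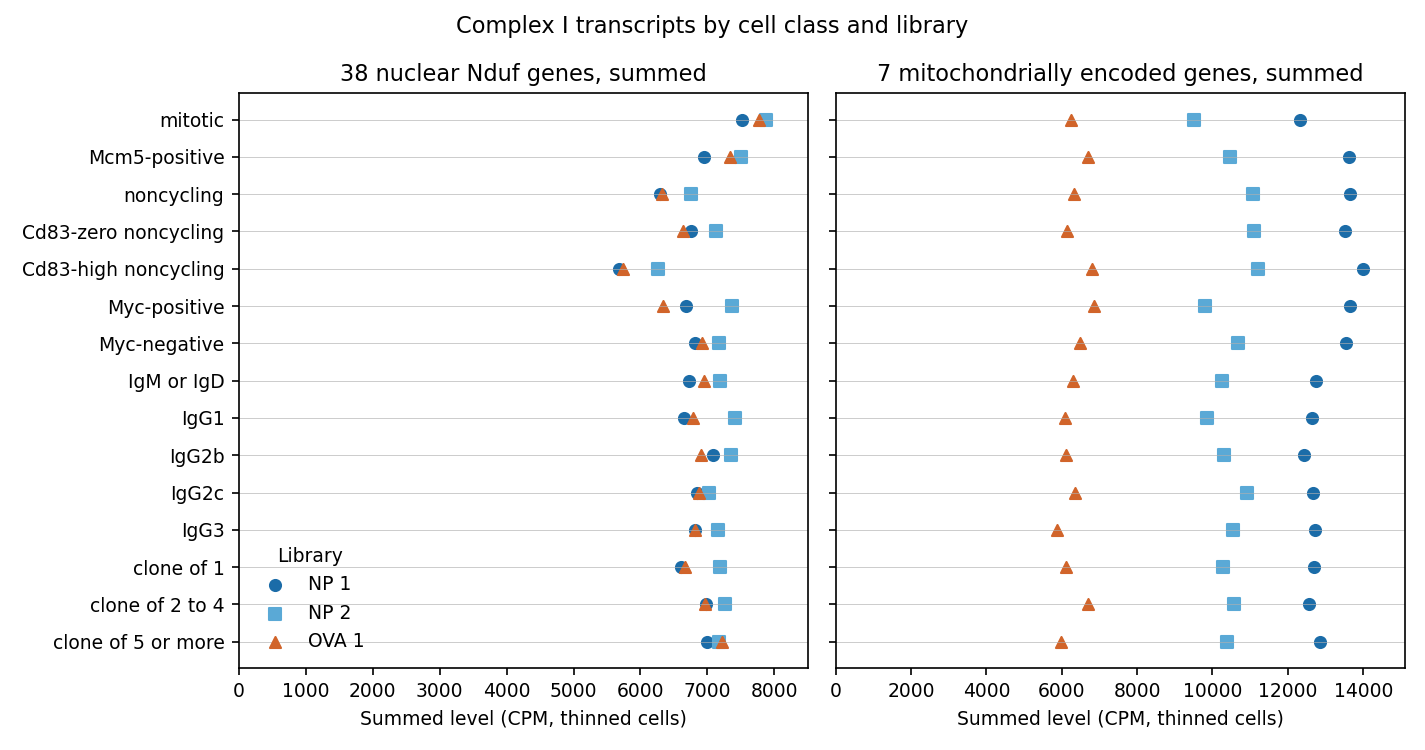
Summed level (horizontal axes, CPM in thinned cells) of the 38 Nduf genes and of the 7 mitochondrially encoded complex I genes in 15 overlapping cell classes, with 1 point per library. The Nduf sum is highest in mitotic cells (7519, 7877 and 7767 CPM) and lowest in Cd83-high noncycling cells (5682, 6258 and 5736 CPM), while the mitochondrial sum separates the libraries in every class.

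Cells with at least 1 Myc UMI (439 cells, of which 324 held exactly 1) had Nduf sums of 6675, 7376 and 6333 CPM, against 6815, 7176 and 6922 CPM in the 5655 cells with none. The Myc-positive value was the higher one in the second NP library and the lower one in the others. No member passed, where 1.77% of 9194 genes did. An unadjusted p under 0.05 was found for 2 of the 37 members and for 961 of the 9194 genes. DESeq2 also called 0. Differences ran from -0.28 ± 0.15 for Ndufb4 to 0.24 ± 0.12 for Ndufv2. The smallest adjusted p belonged to Ndufb11, at 259, 280 and 237 CPM in Myc-positive cells against 285, 314 and 298 CPM (log2 difference -0.23 ± 0.11, edgeR adjusted p = 0.413). Its values were lower in all 3 libraries and did not overlap. Ndufb7 (-0.23 ± 0.11) and Ndufv2 came next. On simulated counts at this size 51.0% of genes with a log2 change of 1 and 14.3% of those with 0.5 were recovered. These genes were drawn at random from all genes tested. The share for the members, whose standard errors ran from 0.09 to 0.25, was not simulated. Changes in members could have been missed at a rate not measured here.

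No member passed the threshold between switched cells and IgM or IgD cells. Nduf sums were 6725, 7182 and 6952 CPM in IgM or IgD cells (2213 cells) and 6837, 7223 and 6870 CPM in switched cells (2521 cells). The share of all 9029 genes that passed was 2.2%. An unadjusted p under 0.05 was found for 1 member, Ndufa2 (-0.12 ± 0.05, edgeR adjusted p = 0.373), and for 1034 of the 9029 genes. DESeq2 also called 0. The median member difference was 0.00 and the largest was that of Ndufa9 (-0.23 ± 0.12). The subclasses were not tested. By subclass, sums ran from 6653 to 7408 CPM in IgG1 cells and 6911 to 7361 CPM in IgG2b cells. They ran from 6852 to 7031 CPM in IgG2c cells and 6811 to 7164 CPM in IgG3 cells. Over the isotype classes with cells in all 3 libraries, the largest departure of a single member from all cells, as the ratio averaged over libraries, was that of Ndufs1 in IgG3 cells, at 37.8, 26.3 and 18.8 CPM. The last value, from 43 OVA cells, rests on 2 thinned UMIs. IgA cells numbered 4 and 7 in the first NP and OVA libraries, too few to describe.

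Clones were cells of a library with the same heavy-chain V and J genes and the same heavy-chain CDR3 nucleotides. A cell whose CDR3 differed at any base, or whose sisters were not captured, counts as seen once. That group can therefore hold cells of expanded clones. Cells of clones with at least 2 members (2301 cells) had Nduf sums of 6988, 7221 and 7110 CPM, and cells seen once (2442 cells) 6605, 7194 and 6665 CPM. The sum was higher in expanded clones in each library, and by least in the second NP library. In clones of at least 5 cells it was 6991, 7171 and 7224 CPM, and in the second NP library that was below the sum of cells seen once. No member passed, where 3.13% of 8989 genes did. An unadjusted p under 0.05 was found for 7 of the 37 members and for 1146 of the 8989 genes. DESeq2 also called 0. The median member difference was 0.07, beside 0.00 over all genes, and 13 members were higher in all 3 libraries, as were 18.9% of genes.

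The members with the smallest p by clone size pointed both ways. Ndufv2 was at 135, 186 and 167 CPM in expanded clones against 157, 203 and 183 CPM in cells seen once, lower in each library (log2 difference -0.18 ± 0.07, edgeR adjusted p = 0.171). Ndufv3, an accessory N module subunit, was at 188, 169 and 175 CPM against 152, 173 and 141 CPM, higher in 2 of the 3 libraries (0.18 ± 0.07, edgeR adjusted p = 0.171). Ndufa11 was at 241, 267 and 263 CPM against 204, 247 and 230 CPM, higher in all 3 (0.16 ± 0.06, edgeR adjusted p = 0.174). The share of mitotic cells was 18.4, 20.2 and 17.0% in expanded clones and 14.4, 15.2 and 11.1% among cells seen once. Within noncycling cells the median member difference was -0.01, and no member passed the threshold, as in the comparison of all cells. The part of mitotic cells in the differences by clone size was not tested.

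**Figure D5:**
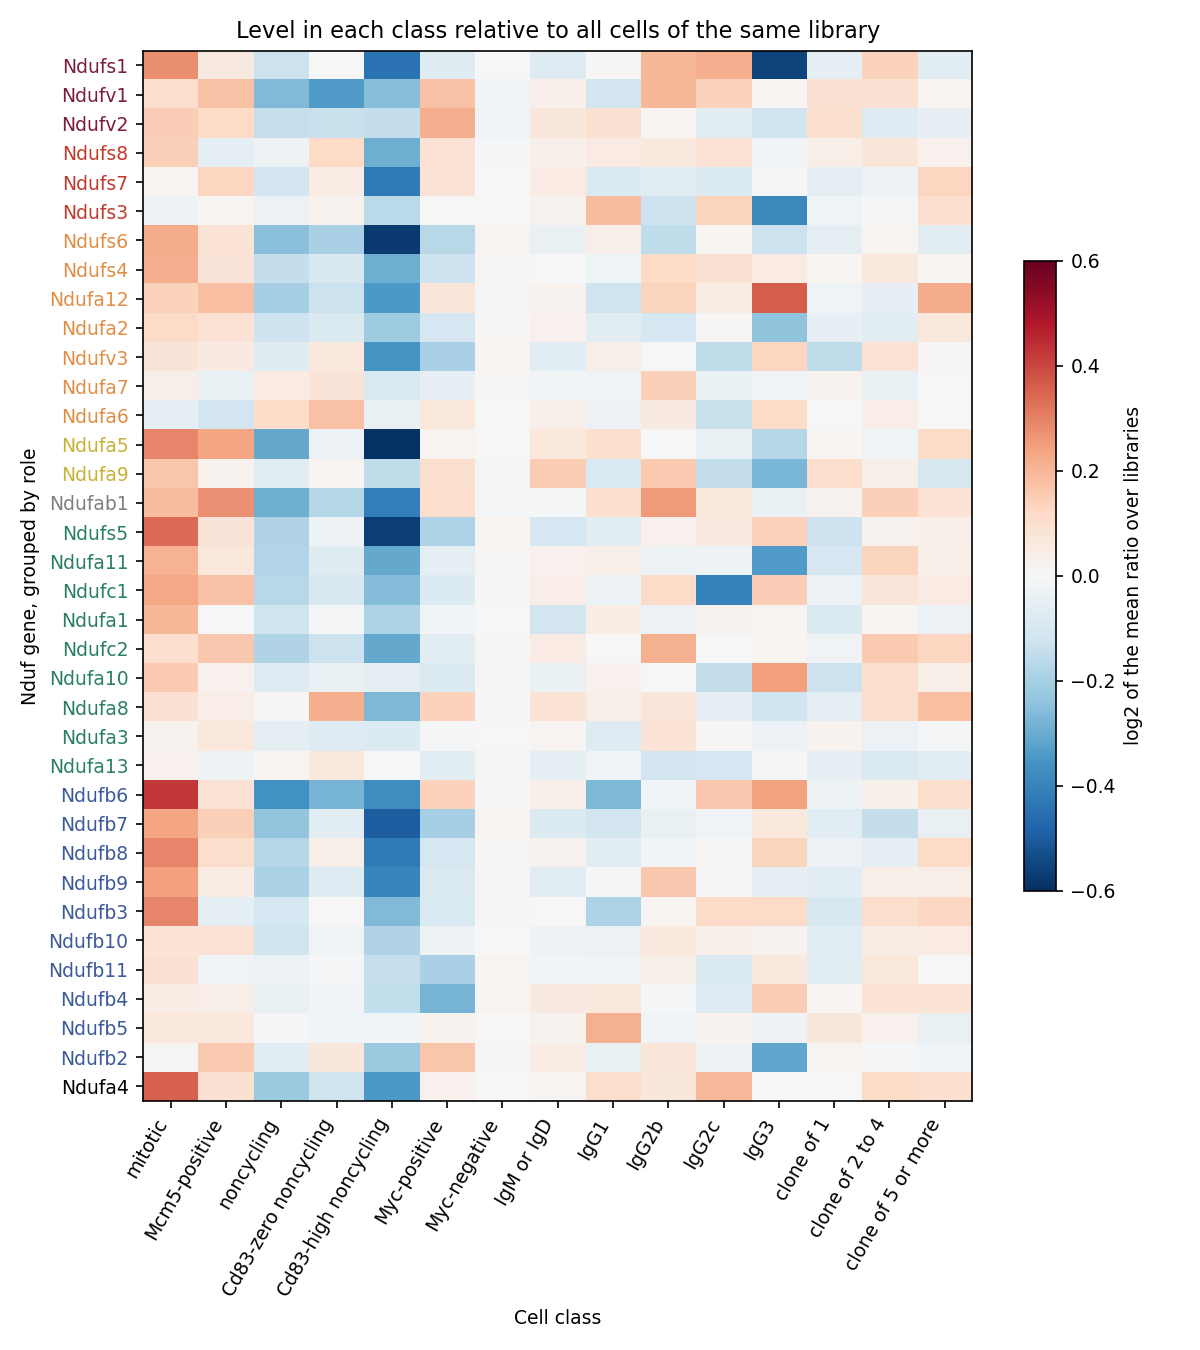
Level of Nduf genes (rows, grouped by role) in 15 overlapping cell classes (columns) relative to all thinned cells of the same library, as log2 of the mean ratio over libraries. Red columns for mitotic cells and blue columns for Cd83-high noncycling cells stand apart from the pale columns for Myc, isotype and clone size, where IgG3 holds the deepest single value (Ndufs1 at -0.56).

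In the promoter set printed above, Ndufb8, Ndufc1, Ndufs4 and Ndufs6 were among the members that rose in mitotic cells, and Ndufa3 (-0.01 ± 0.08), Ndufa9 (0.14 ± 0.16) and Ndufs7 (0.07 ± 0.10) were not. In Mcm5-positive cells Ndufb8 (0.26 ± 0.07), Ndufc1 (0.31 ± 0.08), Ndufs6 (0.32 ± 0.09) and Ndufs7 (0.23 ± 0.08) rose, and Ndufs4 (0.19 ± 0.09), Ndufa3 (0.10 ± 0.07) and Ndufa9 (0.03 ± 0.13) did not pass, where 17 of the 37 members rose. Ndufb6 and Ndufa5, whose windows lack the YY1 letters, differed by 0.72 and 0.54 in mitotic cells, and Ndufs6 by 0.41, the largest value among the 7. Whether the letters bear on these differences was not tested.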

How the data were processed

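Single GC B cells were profiled with a 5′ droplet method, per the labels' protocols. The submitters' processing notes name Cell Ranger and build mm10, and the authors deposited raw UMI counts per gene and cell and UMI counts per immunoglobulin contig. The bulk heavy-chain table was not used here.

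The members and lists were chosen with earlier results of these data known. Cells were filtered and thinned as described above, with 20533741 and 16161435 UMIs in the NP libraries and 21412501 in the OVA library before filtering, and no doublet caller was run. Cells with more than 1 heavy chain numbered 43, 46 and 41. Thinned counts were summed per library and class without 225 immunoglobulin genes and the genes that define the class. They were tested with edgeR 4.0.16 in R 4.3.3 (TMM, filterByExpr, quasi-likelihood test, library as a block, Benjamini-Hochberg adjustment at 0.05 over all genes). The NP and OVA groups were compared without a block. The classes compared come from the same library, so the library pairs them, and their deviations from class means correlated at 0.23 to 0.63. DESeq2 1.42.0 was an alternative. Up to 8 members with the largest change among those that passed were named per comparison, or else the 3 with the smallest p, plus the core subunits; further members are named to account for each call or role, after their values were seen. The values of 1 member are not reported here, though it is in the counts and sums. On simulated mitotic and noncycling counts, 77.7% of genes with a log2 change of 1 and 24.0% of those with 0.5 were called, and 0.0126% of unchanged ones. Motifs and coordinates come from RefSeq, GRCm38.p6.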

Additional observations from a re-analysis of the deposited data

How the results depend on the processing

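The count of members past the threshold moved by more than 1.5 times in these cases. Here and above, counts under an alternative setting stand without the share of all genes that passed in it. They do not show whether members still differed from genes in general. For mitotic against noncycling cells it went from 16 to 6 with DESeq2, 7 with cells thinned to 1500 UMIs, 10 with at least 2 class-defining UMIs and 27 with all UMIs. For Mcm5-positive against noncycling cells it went from 18 to 4 with DESeq2 and 9 at 1500 UMIs. For mitotic against Mcm5-positive cells it went from 4 to 0 with DESeq2, 2 with no low-count filter, 1 at 1500 UMIs and 15 with all UMIs. For Cd83-high against Cd83-zero cells it went from 7 to 0 with DESeq2, 3 at 1500 UMIs, 3 with at most 5% mitochondrial UMIs and 14 with all UMIs. For Myc it went from 0 to 1 with all UMIs (Ndufab1). Without the replicate block these comparisons gave 3, 1, 0, 0 and 0 calls, and those by isotype and clone size 0. Leaving out each library in turn gave 12 to 17, 10 to 16, 1 to 3, 3 to 5 and 0 calls, in the same order. A second random thinning, chosen after seeing the data, gave 20, 18, 4, 6 and 0. The cause of these shifts was not tested. Over the 45 calls, 435 alternative values kept direction and call, 194 kept the direction without passing, and 1 turned: Ndufb9 in mitotic cells at 1500 UMIs, at -0.00135. The NP and OVA groups could not be fitted without an NP library, which leaves 1 library each and no residual degrees of freedom. No difference of a member's change between the NP and OVA groups passed the threshold in any comparison. Few genes of any kind did, from 2 of 9194 for Myc to 16 of 8989 for clone size. With 1 OVA library this test could miss differences, so it does not show that the groups agree.

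Depth limits every comparison: the least abundant tested member, Ndufs1, had a standard error of 0.18 in mitotic cells, close to the median member difference of 0.22. With 3 libraries, 1 of them from the OVA group, a p-value measures the spread between these libraries only.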
